A study of Mus musculus with 2 samples.

Results

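Proteins of the Six-Eya-Dach network regulate transcription, and 8 of its genes are described here in the embryonic mouse limb: Six2, Six4, Six5, Eya2, Eya3, Eya4, Dach1 and Dach2. They were picked by symbol through their Ensembl gene identifiers and were 8 of 43346 Ensembl gene rows, with 37 of 103639 transcript rows. The tissue was limb of B6NCrl mouse embryos at embryonic day 10.5, with males and females pooled. Replicate 2 was 1 pool of 51 embryos and replicate 1 was 1 pool of 69 embryos. The labels give no other group, no treatment and no split into forelimb and hindlimb, so the only comparison is pool against pool. RNA longer than 200 nt was sequenced from 10 ng per library with synthetic spike-in RNAs added.

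Six-family proteins are transcription factors that bind DNA through a homeodomain and a neighbouring conserved domain. Eya proteins do not bind DNA themselves. They join Six-family proteins as coactivators, and their conserved C-terminal domain is also a protein tyrosine phosphatase. Dach proteins are nuclear factors related to Ski and Sno and often act with corepressors. In vertebrate embryos the network is known for its work in muscle precursors, kidney, sensory placodes and limb mesenchyme.

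Expected counts, the reads that a model assigns to each gene, summed to 43983028 in replicate 2 and 40509328 in replicate 1, of which spike-ins took 3.45% in replicate 2 and 3.89% in replicate 1. Levels are given as TPM, transcript abundance scaled to a fixed library sum, which is a level per transcript length and can be compared between genes. All 13 of 13 limb mesenchyme markers, among them Prrx1, Lhx9 and Tbx5, reached 1 TPM in each library. In such bulk tissue, fewer cells of a type and less RNA per cell cannot be told apart.

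The network was present at low to middling levels. Of the 8 members, 7 reached 1 TPM in each library, as did 55.2% of all 21474 protein-coding genes, and the exception was Six2. Summed over the members, the level was 88.57 TPM in replicate 2 and 76.3 TPM in replicate 1. All expressed members except Eya3 lay below the median of expressed protein-coding genes, which was 22.4 TPM in replicate 2 and 19.9 TPM in replicate 1. Among all protein-coding genes, Eya3 stood at percentile 79.4 in replicate 2 and 80.3 in replicate 1, and Six2 at percentile 47.9 in replicate 2 and 42.1 in replicate 1.

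**Figure D1:**
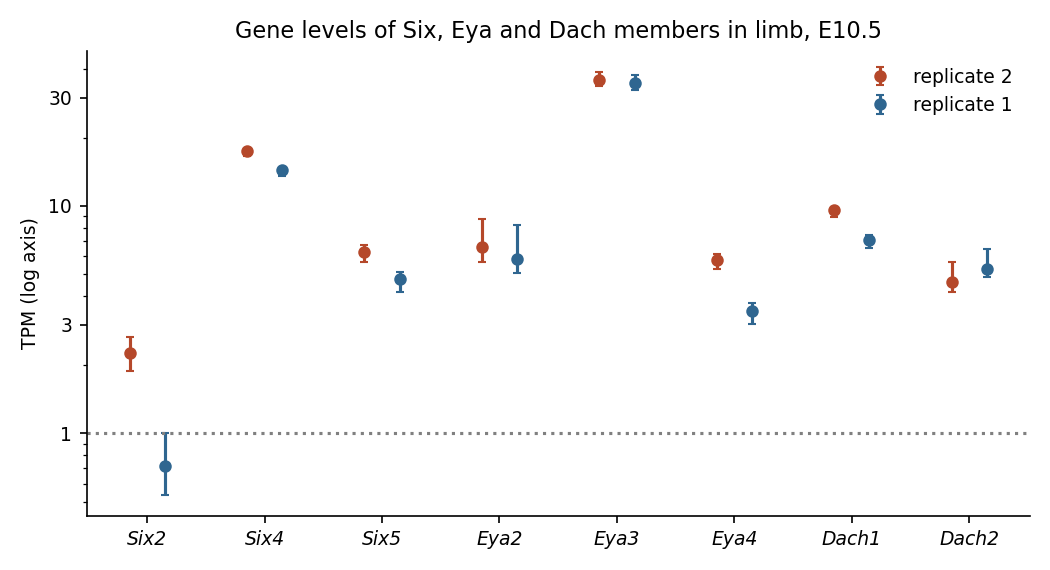
Gene level of each member as TPM (log axis) in replicate 2 (left point of each pair) and replicate 1 (right point), with bars for the deposited TPM interval of that library and a dotted line at a TPM of 1. Eya3 stands highest at 35.9 TPM in replicate 2 and 34.8 TPM in replicate 1, and Six2 is the one gene with a point under the line, at 0.72 TPM in replicate 1.

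Six4 (ENSMUSG00000034460.9, chr12:73099609-73113456, minus strand, GRCm38) encodes a homeodomain factor known from skeletal muscle formation. It had 17.5 TPM in replicate 2 and 14.4 TPM in replicate 1, a mean of 15.9 ± 2.17 (SD, n = 2). With 3068 expected counts in replicate 2 and 2429 in replicate 1, it was the most deeply counted member. Six4 was the highest of Six2, Six4 and Six5 in both libraries. It had 2.77 times the TPM of Six5 in replicate 2 and 3.03 times in replicate 1.

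Six5 (ENSMUSG00000040841.5, chr7:19094594-19098549, plus strand) lies beside Dmpk, the gene whose repeat expands in human myotonic dystrophy. It had 6.30 TPM in replicate 2 and 4.75 TPM in replicate 1, a mean of 5.53 ± 1.10 (SD, n = 2), from 509 expected counts in replicate 2 and 368 in replicate 1. Dmpk, whose nearest end is 772 bases away, had 7.29 TPM in replicate 2 and 5.97 TPM in replicate 1. Both genes of this close pair lay below the median expressed gene in each pool.

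Six2 (ENSMUSG00000024134.11, chr17:85684277-85688274, minus strand) encodes the factor that keeps kidney nephron progenitors undifferentiated. It had 2.25 TPM in replicate 2, with a deposited interval of 1.87 to 2.65, and 0.72 TPM in replicate 1, with an interval of 0.537 to 1.00. These levels rest on 126 expected counts in replicate 2 and 39 in replicate 1. The intervals of the libraries did not overlap, so the libraries differed beyond the estimated counting error. Pool and library cannot be told apart, and the spread between more pools is unknown. Intervals were apart in the same direction for 32.4% of 13489 expressed genes, a set that leaves out Six2. Six4 had 7.76 times the TPM of Six2 in replicate 2 and 20.0 times in replicate 1, and Six5 had 2.80 times in replicate 2 and 6.60 times in replicate 1.

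Eya3 (ENSMUSG00000028886.11, chr4:132638987-132724765, plus strand) encodes a coactivator that also removes a phosphate from a tyrosine of the histone H2AX during the DNA damage response. As a gene it was the highest member, with 35.9 TPM in replicate 2 and 34.8 TPM in replicate 1, a mean of 35.3 ± 0.799 (SD, n = 2). This level is a sum over 13 annotated transcripts, and most of it was not assigned to those annotated as protein coding. The coding transcripts together had 7.70 TPM in replicate 2 and 6.91 TPM in replicate 1, which was 21.4% of the gene's TPM in replicate 2 and 19.8% in replicate 1. The rest went to transcripts annotated as processed transcripts, a class without a coding region in the annotation.

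The leading transcript was Eya3-212, a processed transcript of 2320 nt, with 16.2 TPM in replicate 2 and 18.5 TPM in replicate 1. It drew 1000 expected counts in replicate 2 and 1096 in replicate 1, more than all other Eya3 transcripts together. In GENCODE M21 all 2320 of its bases also lie in the full coding transcript Eya3-203, and 1401 of the 1578 coding bases of Eya3-203 are in Eya3-212. Short reads from those bases can come from either transcript, so the division between them rests on the estimate. Eya3-203, at 5160 nt, was given 1.75 TPM in replicate 2 and 1.5 TPM in replicate 1. Most of the coding TPM went instead to Eya3-207, a coding transcript of 1138 nt. Eya3-207 had 5.95 TPM in replicate 2 and 5.26 TPM in replicate 1. It has 906 coding bases, of which 768 lie in Eya3-203, so the coding level of Eya3 is mostly that of a short transcript. Over all coding transcripts, the share of Eya3's expected counts was 26.0% in replicate 2 and 22.9% in replicate 1.

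Within the coding region, Eya3-203 differs from Eya3-212 by 2 neighbouring exons that only Eya3-203 holds, shown here because reads over them separate the transcripts. The exons are joined as in the RNA, with exon 5 of Eya3-203 in lower case (40 nt, chr4:132670216-132670255) and exon 6 in capitals (137 nt, chr4:132672896-132673032).
Eya3 exons 5 and 6: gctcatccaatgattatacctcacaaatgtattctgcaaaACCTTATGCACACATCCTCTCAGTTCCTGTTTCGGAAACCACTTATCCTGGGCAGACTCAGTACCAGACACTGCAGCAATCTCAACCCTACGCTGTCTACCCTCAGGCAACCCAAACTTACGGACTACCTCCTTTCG
Read counts per exon were not analysed here. The next Eya3 transcript, Eya3-206, is a processed transcript of 655 nt. It had 10.4 TPM in replicate 2 and 8.58 TPM in replicate 1, from 160 expected counts in replicate 2 and 127 in replicate 1. All 655 of its bases are likewise in Eya3-203.

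**Figure D2:**
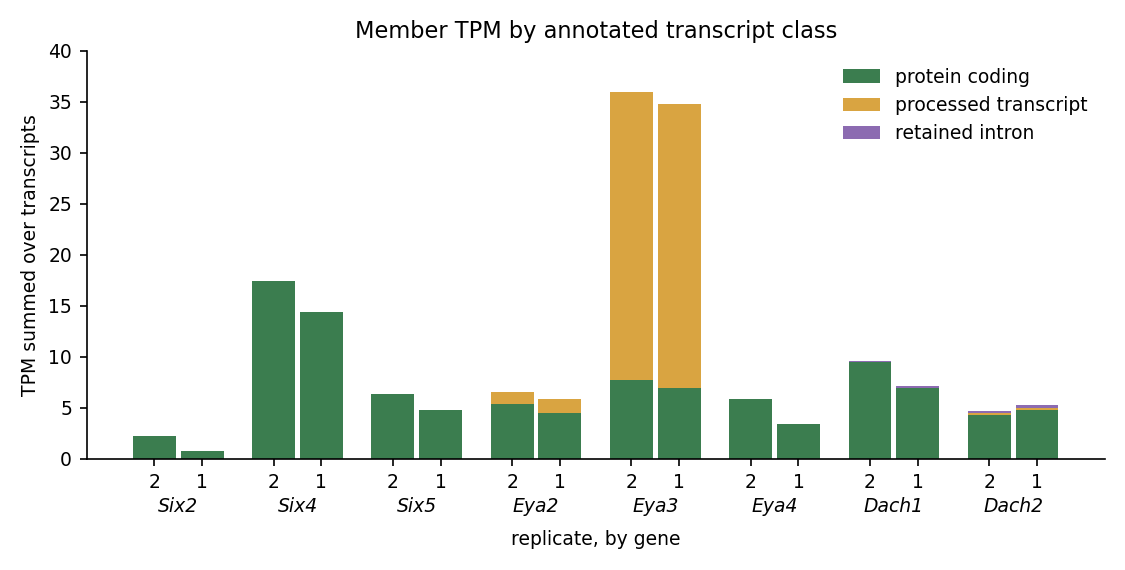
Member levels as bars of TPM summed over transcripts, stacked by annotated class, with replicate 2 left of replicate 1 for each gene. Eya3 is the one gene whose bars are mostly processed transcript, with a protein-coding part of 7.70 TPM in replicate 2 and 6.91 TPM in replicate 1.

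Among 6 expressed members with 2 or more transcripts, Eya3 was the only one with under 50% of its TPM in protein-coding transcripts in both libraries, a state shared by 10.2% of 8741 such genes across the table. On coding transcripts alone, Eya3 lay below Six4, which had 17.5 TPM in replicate 2 and 14.4 TPM in replicate 1. It also lay below the 9.47 TPM of Dach1 in replicate 2 and beside its 6.89 TPM in replicate 1. The gene level and the coding level therefore place Eya3 differently in the order of members.

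Eya2 (ENSMUSG00000017897.14, chr2:165595032-165771727, plus strand) is a coactivator known, in chick somites, to work with Pax3 and Dach2 in the start of muscle formation. It had 6.58 TPM in replicate 2 and 5.84 TPM in replicate 1, a mean of 6.21 ± 0.523 (SD, n = 2). The coding transcript Eya2-202 led with 82.0% of this in replicate 2 and 77.1% in replicate 1. Most of the remainder came from short transcripts with very few reads. Eya2-203, of 369 nt, took 14.8% of the TPM in replicate 2 and 10.3% in replicate 1 from 7.30 expected counts in replicate 2 and 4.35 in replicate 1. Processed transcripts of Eya2 held 3.39% of its expected counts in replicate 2 and 4.44% in replicate 1, so the coding level of 5.39 TPM in replicate 2 and 4.50 TPM in replicate 1 rests on nearly all of its reads.

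Eya4 (ENSMUSG00000010461.10, chr10:23102963-23350786, minus strand) is the Eya gene tied to human deafness and heart muscle disease. It had 5.81 TPM in replicate 2 and 3.44 TPM in replicate 1, a mean of 4.63 ± 1.68 (SD, n = 2). The deposited interval was 5.27 to 6.17 in replicate 2 and 3.04 to 3.75 in replicate 1, so the intervals of the libraries did not overlap. All of it was assigned to 2 coding transcripts. Eya4-202 led with 76.1% of the TPM in replicate 2 and 75.5% in replicate 1, and Eya4-201 held 23.9% in replicate 2 and 24.5% in replicate 1. The split was nearly the same in both pools although the gene level was not.

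In their coding region the Eya4 transcripts differ by one exon of 101 nt, exon 18 of 19, for which each carries its own version. The versions lie side by side with 38 bases between them, at chr10:23109832-23109932 in Eya4-202 and chr10:23109971-23110071 in Eya4-201, both on the minus strand of GRCm38. They are shown 5′ to 3′ with the bases that differ between them in capitals.
Eya4-202 exon 18: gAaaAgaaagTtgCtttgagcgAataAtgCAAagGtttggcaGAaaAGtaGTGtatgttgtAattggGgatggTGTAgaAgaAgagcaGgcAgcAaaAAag
Eya4-201 exon 18: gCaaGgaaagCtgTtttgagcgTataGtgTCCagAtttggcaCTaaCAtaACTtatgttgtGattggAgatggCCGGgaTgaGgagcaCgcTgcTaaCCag
The versions are the same at 71 of 101 bases (70.3%) and differ at 30. The 3′ ends of these transcripts differ as well, so the transcript share is not a measured share of either exon.

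Dach1 (ENSMUSG00000055639.12, chr14:97786853-98169765, minus strand) is the Dach gene best known from limb bud mesenchyme. It had 9.61 TPM in replicate 2 and 7.11 TPM in replicate 1, a mean of 8.36 ± 1.77 (SD, n = 2), from 1328 expected counts in replicate 2 and 938 in replicate 1. Dach1-201 led with 86.3% of the TPM in replicate 2 and 91.9% in replicate 1. Dach1-202 came next with 1.17 TPM in replicate 2 and 0.36 TPM in replicate 1. The deposited intervals of Dach1-202, 0.456 to 2.19 in replicate 2 and 0.0342 to 0.967 in replicate 1, overlapped between the libraries.

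The transcripts Dach1-202 and Dach1-201 differ by a single coding exon of 156 nt, exon 4 of Dach1-202, at chr14:97916393-97916548 on the minus strand. It is shown because Dach1-202 holds it and Dach1-201 does not. The exon is in capitals and the 20 nt of Dach1-202 on each side of it are in lower case.
Dach1-202 exon 4: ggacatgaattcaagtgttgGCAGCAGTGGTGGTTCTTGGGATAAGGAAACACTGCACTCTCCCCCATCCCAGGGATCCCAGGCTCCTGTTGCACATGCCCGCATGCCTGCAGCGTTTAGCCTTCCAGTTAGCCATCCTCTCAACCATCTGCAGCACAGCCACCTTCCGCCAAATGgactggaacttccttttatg
Only reads that touch this exon, or the junction that skips it, tell these transcripts apart. The smaller share of Dach1 with the exon was 12.2% of TPM in replicate 2 and 5.04% in replicate 1.

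Dach2 (ENSMUSG00000025592.13, chrX:113297510-113836386, plus strand) had 4.65 TPM in replicate 2 and 5.27 TPM in replicate 1, a mean of 4.96 ± 0.438 (SD, n = 2). It was the only member with a lower TPM in replicate 2. Dach1 had 2.07 times the TPM of Dach2 in replicate 2 and 1.35 times in replicate 1. Dach2-201 led with 56.1% of the gene's TPM in replicate 2 and 60.3% in replicate 1. Dach2-205 held 14.1% in replicate 2 and 13.9% in replicate 1, and lacks an exon of 39 nt that Dach2-201 has at chrX:113452458-113452496. These transcripts differ elsewhere as well, and 1816 of the 1902 coding bases of Dach2-201 are in Dach2-205. The transcript share is therefore not a measured share of that exon. That exon is printed in capitals, with 20 nt of Dach2-201 on each side in lower case.
Dach2-201 exon 2: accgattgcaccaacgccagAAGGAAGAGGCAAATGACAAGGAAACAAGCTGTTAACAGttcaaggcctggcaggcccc

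The annotated transcripts of Dach2 begin at 4 places, of which 2 lie close together at the 5′ end of the gene and held nearly all of its TPM. Transcripts that start between 113298252 and 113298257 held 74.6% of Dach2 TPM in replicate 2 and 79.9% in replicate 1. Those that start between 113297510 and 113297576 held 22.2% in replicate 2 and 16.8% in replicate 1, from 66.9 expected counts in replicate 2 and 54.7 in replicate 1. Dach2-206, which starts far inside the gene at 113724349, held 3.15% in replicate 2 and 3.29% in replicate 1, and Dach2-207 was at 0 in both. By assigned TPM, transcripts annotated to start at 113298252 to 113298257 thus led in both pools, but the ends of the RNA were not measured. Upstream transcripts had wide deposited intervals, such as 0.128 to 0.946 TPM for Dach2-203 in replicate 2.

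The sequences before the 2 main groups of starts, from RefSeq (GRCm38.p6), are shown because the TPM assigned to their transcripts differs. Matches to TATAAA or CCAAT, on either strand, are in capitals. The downstream stretch leaves out bases that belong to an upstream exon.
Dach2 upstream start, chrX:113297260-113297509, plus strand: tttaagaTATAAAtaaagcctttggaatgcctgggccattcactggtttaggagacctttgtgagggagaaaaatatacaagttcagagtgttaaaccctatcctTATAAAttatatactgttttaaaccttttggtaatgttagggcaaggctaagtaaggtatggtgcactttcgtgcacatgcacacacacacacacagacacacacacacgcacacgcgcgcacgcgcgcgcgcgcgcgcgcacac
Dach2 downstream start, chrX:113298078-113298255, plus strand: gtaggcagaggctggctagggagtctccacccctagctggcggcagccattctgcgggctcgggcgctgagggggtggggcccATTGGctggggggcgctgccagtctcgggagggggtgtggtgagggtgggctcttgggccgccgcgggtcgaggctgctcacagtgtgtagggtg
The upstream stretch, of 250 bases, has 45.6% G and C and 2 matches to TATAAA. The downstream stretch, of 178 bases, has 71.3% G and C and 1 match to CCAAT, read on the minus strand. Over all 32851 RefSeq windows of 300 bases, TATAAA was present in 13.6% and CCAAT in 37.4%. These windows are longer than the stretches shown, so the shares are not matched to them in length. A match is a description of these letters and not a measured site.

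RefSeq start windows of 300 bases were matched for 7 of the 8 members, 10 windows in all, with none matched for Eya2. The Six2 window has 37 CpG dinucleotides, more than 94.4% of all windows, and the Eya4 windows have 36 and 28, against a median of 7. GGGCGG, on either strand, is in 35.7% of all windows and in those of Six2, Six4, Six5, Eya3 and Eya4. It is also in the full downstream Dach2 window, but not in the stretch of that window printed above. TCAGGTT, the core of the MEF3 motif that Six-family proteins bind in muscle genes, is in 4.07% of all windows and in 1 of the Six4 windows. All 10 member windows held more CpG than the median window, and the upstream Dach2 window was the one with TATAAA.

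**Figure D3:**
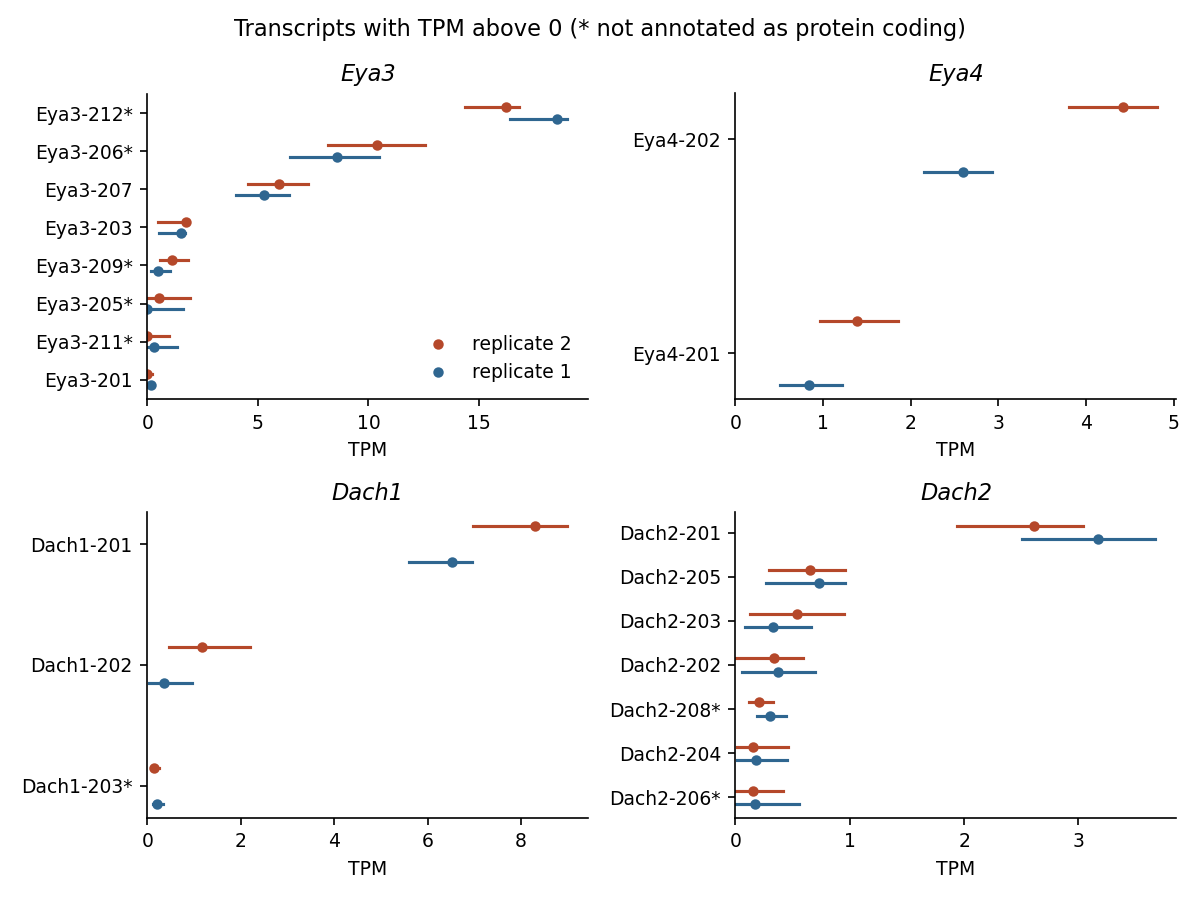
TPM of each transcript above 0 for Eya3, Eya4, Dach1 and Dach2, with replicate 2 above replicate 1, horizontal bars for the deposited interval, and an asterisk on transcripts not annotated as protein coding. Eya3-212 leads Eya3 at 16.2 TPM in replicate 2 and 18.5 TPM in replicate 1, while coding transcripts lead the other 3 genes.

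Every member had the same leading transcript in both libraries. Of 6 expressed members with 2 or more transcripts, 5 had a leader with 50% or more of the TPM in each library, beside 70.4% of 8741 such genes. Eya3 missed that mark through replicate 2, where Eya3-212 had 45.2%, against 53.2% in replicate 1. Six4-201 was the most dominant leader of these 6, with 94.1% in replicate 2 and 93.3% in replicate 1. Six5 has a single transcript, and all Six2 counts were assigned to Six2-202.

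By mean TPM the order was Eya3, Six4, Dach1, Eya2, Six5, Dach2, Eya4 and Six2. The deposited intervals of Eya3 over Six4, Six4 over Dach1, and Eya4 over Six2 were apart in both libraries. Eya2 and Six5 overlapped in both, as did Six5 and Dach2, so these 3 genes had no settled order. Dach1 stood clear of Eya2 in replicate 2 but not in replicate 1, and Dach2 stood clear of Eya4 in replicate 1 but not in replicate 2. Within the 3 families, 6 of 7 pairs of members had intervals apart in the same direction in both libraries. The exception was Eya2 against Eya4, with a TPM ratio of 1.13 in replicate 2 and 1.70 in replicate 1.

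The 2 pairs with Eya3 on top depended on the transcript classes. Eya3 had 5.46 times the gene TPM of Eya2 in replicate 2 and 5.96 times in replicate 1. On coding transcripts, where most Eya3 TPM was that of the short Eya3-207, the ratio was 1.43 in replicate 2 and 1.54 in replicate 1. Against Eya4 the gene ratio was 6.18 in replicate 2 and 10.1 in replicate 1, and the coding ratio was 1.33 in replicate 2 and 2.01 in replicate 1. The pairs among Six2, Six4 and Six5 did not shift in this way, since all transcripts of these genes are annotated as coding.

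Between the pools, most members were somewhat higher in replicate 2 but within the range of genes in general. The log2 difference (replicate 2 minus replicate 1, log2 CPM after TMM scaling in edgeR) had a median of 0.20 over the members and 0.01 over the 16878 genes that averaged at least 10 counts. It was above 0 for 6 members and below 0 for 2. Of 7 members that averaged at least 100 counts, 0 were 2-fold higher or lower. Among all 12256 genes at that depth, 1.26% were 2-fold higher, 0.326% were 2-fold lower and 1.59% were either. No p-value was computed, because each pool is a single library without a replicate of its own.

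Six2 had the largest difference, 1.45, with a 95% counting interval of 0.96 to 2.05. Its mean count of 82.5 lies below 100, and among the 16878 genes that averaged at least 10 counts, 4.00% were 2-fold higher in replicate 2 and 5.51% were 2-fold different either way. Eya4 followed at 0.61 (0.42 to 0.80), then Dach1 at 0.30 (0.18 to 0.42), Six5 at 0.26 (0.07 to 0.46) and Six4 at 0.13 (0.06 to 0.21). Eya2 was at 0.10, with an interval from -0.13 to 0.33 that includes 0. Eya3 was at -0.20 (-0.30 to -0.10) and Dach2 at -0.33 (-0.54 to -0.13). Only counting error enters these intervals, and PCR copies of a molecule were not told apart.

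Among the 7 members at 100 counts or above, the counting interval lay above 0 for 4, beside 29.3% of all such genes, and below 0 for 2, beside 33.6%. The deposited TPM intervals of the libraries were apart, with replicate 2 higher, for 4 of the 7 expressed members and 32.4% of 13489 expressed genes, and with replicate 2 lower for 0 of the 7 and 8.49% of genes. Eya3 changed sign with the scaling: its log2 difference was 0.045 on deposited TPM, as log2(TPM + 1), and 0.060 on counts scaled to spike-ins. The median over all genes averaging at least 10 counts was 0.26 with spike-in scaling and 0.12 on log2(TPM + 1). Eya3 remained below the median gene in each of these settings.

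**Figure D4:**
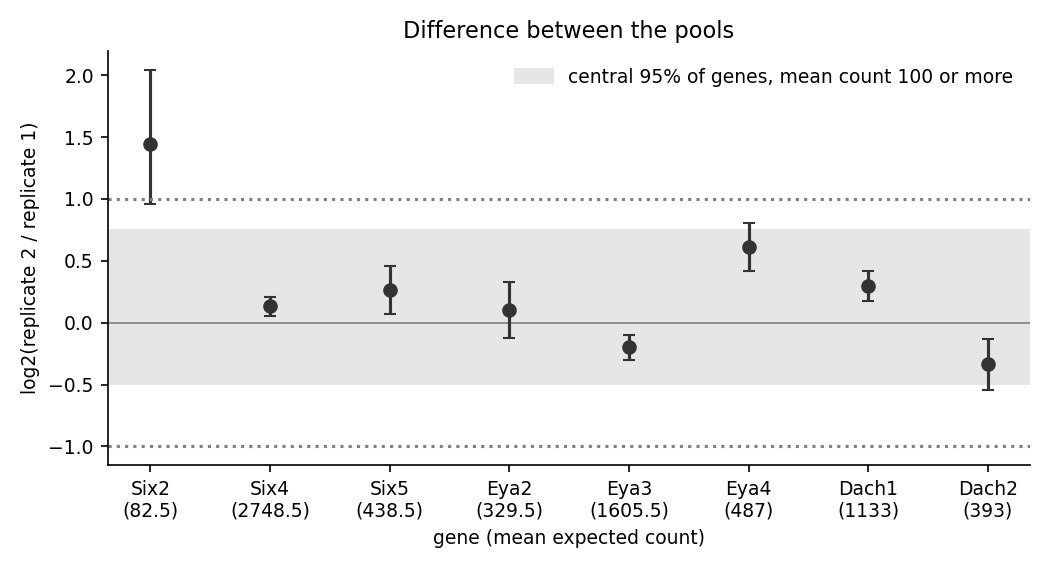
Log2 difference between pools for each member (replicate 2 over replicate 1, TMM scaling), with bars for the 95% counting interval, the mean expected count under each name, dotted lines at 2-fold and a grey band for the central 95% of genes averaging at least 100 counts. All members except Six2, at 1.45 from a mean count of 82.5, lie inside the band of -0.50 to 0.75.

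Marker lists of several cell types also differed between the pools, in both directions. The 4 muscle determination genes summed to 37.9 TPM in replicate 2 and 9.84 TPM in replicate 1, and 3 of the 4 were expressed in both, with Myf6 the exception. The 6 cartilage genes summed to 352 TPM in replicate 2 and 160 TPM in replicate 1, with Matn1 at 0 in replicate 1. The 7 tendon genes summed to 61.1 TPM in replicate 2 and 32.3 TPM in replicate 1, with Tnmd and Egr2 at 0 in replicate 1. That tendon sum was carried by Scx and Mkx, and the median log2 difference over the 5 tendon genes averaging at least 10 counts was -0.15, with 2 higher and 3 lower. The 8 somite and sclerotome genes summed to 107 TPM in replicate 2 and 66.7 TPM in replicate 1, with a median log2 difference of 0.87, 5 higher and 3 lower. The 5 erythroid genes were all lower in replicate 2, with a median log2 difference of -0.55. The 11 genes of the ridge and ectoderm summed to 190 TPM in replicate 2 and 249.3 TPM in replicate 1. Of the 13 limb mesenchyme genes, 5 were higher and 8 lower in replicate 2, with a median log2 difference of -0.18. The hindlimb factors Tbx4 and Pitx1 were among the higher ones. Tbx4 had 41.1 TPM in replicate 2 and 19.7 TPM in replicate 1, and Pitx1 had 126.5 TPM in replicate 2 and 65.0 TPM in replicate 1. The forelimb factor Tbx5 had 26.4 TPM in replicate 2 and 28.8 TPM in replicate 1. The part of such shifts in the differences of Six2, Eya4 or any other member was not tested.

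Genes known from kidney progenitors, where Six2 is best known, were detected in part, and whether such cells were present was not tested. Of 7 nephric genes, Osr1, Wt1, Cited1 and Gdnf were expressed in both libraries. Osr1 had 30.2 TPM in replicate 2 and 16.3 TPM in replicate 1, while Cited1 had 23.4 TPM in replicate 2 and 27.6 TPM in replicate 1, and Wt1 had 4.67 TPM in replicate 2 and 5.5 TPM in replicate 1. The median log2 difference over the 6 nephric genes averaging at least 10 counts was -0.08, with 3 higher and 3 lower. Pax2, Pax8 and Lhx1 stayed under 1 TPM in both, with at most 0.32 TPM in replicate 2 and 0.6 TPM in replicate 1. Among 8 genes of placodes and sensory neurons, another place where the network acts, 3 were expressed in both, and Neurog1, Neurog2 and Neurod1 had at most 0.03 TPM in replicate 2 and 0.11 TPM in replicate 1. Of 8 muscle precursor genes, 6 were expressed in both. Met, the receptor that lets these cells leave the somite, had 9.64 TPM in replicate 2 and 6.98 TPM in replicate 1, and Lbx1, which marks the migrating cells, had 3.28 TPM in replicate 2 and 5.27 TPM in replicate 1.

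RNA of genes whose proteins are known to work with the members was mostly detected, for many of these genes at a higher TPM than the members. Of 6 genes, those of the Groucho family and Sobp, 6 were expressed in both libraries. Aes was highest with 292 TPM in replicate 2 and 230.2 TPM in replicate 1. Tle3 came next with 46.7 TPM in replicate 2 and 44.5 TPM in replicate 1. The lowest was Sobp, the mouse relative of a fly protein that binds a Six-family factor, with 1.89 TPM in replicate 2 and 1.11 TPM in replicate 1. All 7 of 7 corepressor and cofactor genes linked to Dach were expressed, led by the deacetylase gene Hdac1 with 283 TPM in replicate 2 and 257 TPM in replicate 1. Of the Ski and Sno genes, the relatives of Dach, Skil and Ski were expressed and Skor1 and Skor2 were not.

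For Eya, all 6 partner and substrate genes were expressed, from H2afx, the histone gene whose product Eya3 can dephosphorylate, at 464 TPM in replicate 2 and 431 TPM in replicate 1, to Gnaz at 2.5 TPM in replicate 2 and 2.18 TPM in replicate 1. Pax factors, which act upstream of or beside the network, were less broadly found: Pax3 and Pax1 of 7 were expressed in both libraries. Pax3, the factor of migrating muscle precursors, had 9.69 TPM in replicate 2 and 10.5 TPM in replicate 1. Dach1 was close to this in replicate 2 and below it in replicate 1, where their deposited intervals were apart. Pax1 had 9.12 TPM in replicate 2 and 2.15 TPM in replicate 1, a wider gap than any member showed on the log2 scale. Over all lists, 87 of 114 distinct genes were expressed in both pools.

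**Figure D5:**
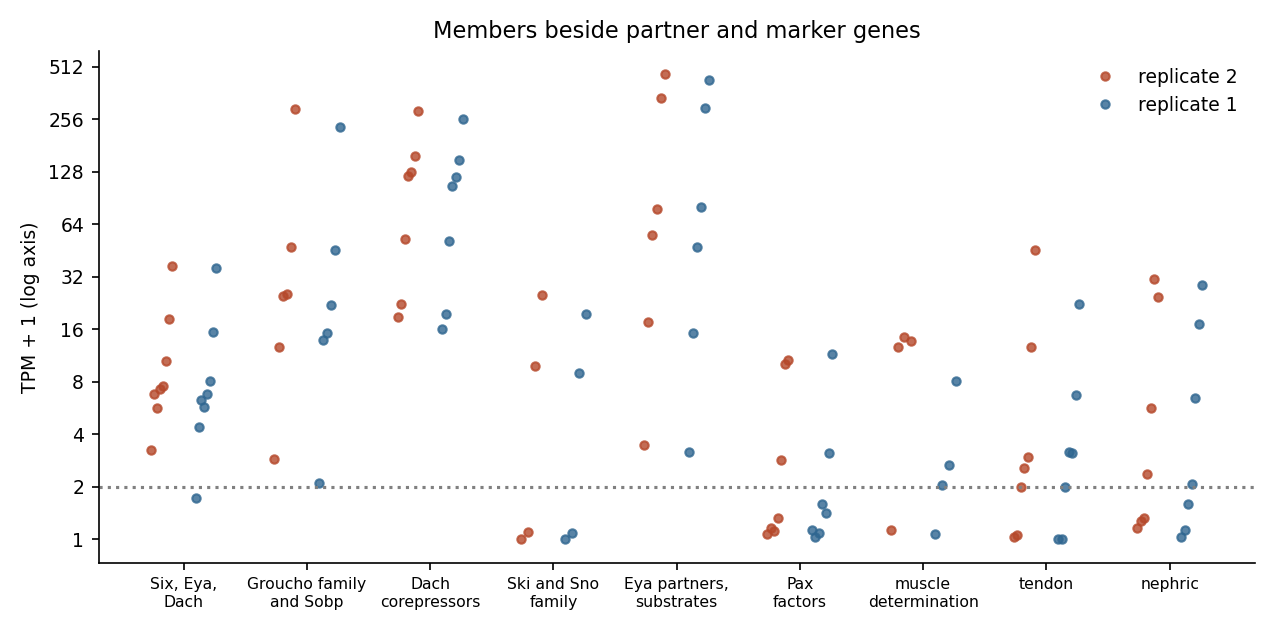
Level (TPM + 1, log axis) of each member and of each gene in 8 lists of partners and markers, with replicate 2 left of replicate 1 in each list and a dotted line at a TPM of 1. Dach corepressors and Eya partners reach up to 464 TPM in replicate 2 and 431 TPM in replicate 1, above the members' highest values of 35.9 TPM in replicate 2 and 34.8 TPM in replicate 1.

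The protein-coding genes whose levels lay nearest to an expressed member over the 2 libraries were Armh3 and Shprh for Six4, Sft2d3 and Lpcat2 for Six5, B3gntl1 and Mmrn2 for Eya2, and Dpagt1 and H2afj for Eya3. For Eya4 they were Klhl15 and Dkk2, and for Dach2 Igflr1 and Rps6ka3. These genes lay within 0.0288 of their member as a distance in log2(TPM + 1), which many genes can reach by level alone when 2 libraries define it. Beside the members on the chromosome, Xkr8 lies 131 bases from Eya3 and had 6.97 TPM in replicate 2 and 4.80 TPM in replicate 1. Tcf21, the nearest coding neighbour of Eya4 on one side at 282788 bases, had 0.61 TPM in replicate 2 and 2.27 TPM in replicate 1, opposite in direction to Eya4. Annotated genes that overlap a member had at most 1 expected count in each library.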

How the data were processed

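Limb RNA of 2 pools was analysed from gene and transcript tables. Per the labels' text files, the authors quantified each library on mm10 with GENCODE M4. The aligner, quantifier and use of strand were not given in the sources used here. The deposited values are expected counts, TPM over all rows, lower and upper TPM bounds of unstated level, and the percent of a gene's TPM held by each transcript.

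Symbols, transcript classes and coordinates came from GENCODE M21 (GRCm38), which named 42462 Ensembl rows (98.0%). The other 26249 rows and 96 spike-ins stayed out of library sizes. Rounded expected counts were scaled by TMM in edgeR 4.0.16 (R 4.3.3, log2 CPM, prior count 2), with DESeq2 1.42.0 size factors as an alternative, and intervals are exact binomial at 95%. The calculation of log2 differences was checked on simulated counts. Figures and sums used Python 3.11.15. Effective length is length minus 99 nt, so short transcripts gain TPM from few reads.

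Expressed means at least 1 TPM in each library. Named genes are all members, genes of the listed partners and markers, the 2 nearest in level (those of Dach1 are not reported here), the nearest coding neighbours, and the leading and next transcripts. Other transcripts and list genes named were chosen after their values were seen. Members and lists were chosen with earlier results of these data known. Lists for muscle precursors, somite, endothelium, erythroid cells and macrophages had 6 of 8, 5 of 8, 5 of 5, 5 of 5 and 3 of 4 genes expressed. Separate pools make the replicates; pool, library and batch cannot be told apart.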

Additional observations from a re-analysis of the deposited data

How the results depend on the processing

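Of 106 values under an alternative setting, 84 were counted as kept. A count was kept within 1.5-fold, a member's TPM within 1 SD of the 2 libraries, and a difference within its counting interval. With 1 library left out, a member's TPM always lies within that SD, so those values could not move. Members expressed numbered 4 at a TPM of 5, and 7 to 8 with a library left out. With one library left out, partner and marker genes expressed numbered 88 to 90, pairs in order 6 to 7, and members with one leading transcript 6 in each case. Pairs in order numbered 3, those among Six2, Six4 and Six5, at a coding-transcript ratio of 1.5, chosen after seeing the data. Members 2-fold different numbered 1 (Six2) at a mean count of 10 and 1 (Six2) with no filter. At 1.5-fold the number was 1 (Eya4, beside 6.20% of genes). The median difference over members was 0.46 with spike-in scaling, where the median over all genes was 0.26. Eya3 reversed, at 0.045 on deposited TPM and 0.060 with spike-in scaling, and Six2 was at 0.92 on log2(TPM + 1). Leaving out a library gives no value for a difference between libraries. No paired analysis was possible because the labels give only 1 group. Six2, with 126 counts in replicate 2 and 39 in replicate 1, is limited most by depth.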
